A study of Mus musculus with 4 samples.

Results

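The Sfmbt2 repeat family of miR-297, miR-466, miR-467 and miR-669 is a rodent group of miRNAs, most of whose hairpins lie side by side within Sfmbt2, an imprinted gene for a Polycomb group protein. Its members were taken by name, as every probe for a mouse miR-297, miR-466, miR-467 or miR-669 of any letter or arm, which gave 33 of the 566 mouse probes measured. The naming rule itself uses no measured value, but it was chosen with earlier results of these data known. The set holds 3 probes for miR-297, 12 for miR-466, 7 for miR-467 and 9 for miR-669, and 2 further probes that each pool names from several of these subfamilies, namely miR-297a+miR-466f+miR-669b and miR-467h+miR-669d+miR-669l. A probe that pools names gives 1 value for all of them, which was the case for 4 probes in all.

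The levels come from the NanoString nCounter assay, which counts tagged molecules of each mature miRNA without amplification. The samples were 2 cultures of wild-type (WT) R1 cells, an established line of mouse embryonic stem cells (ESCs), and 2 cultures of TKO cells. The TKO cells are labelled as R1 cells from which the 3 DNA methyltransferases Dnmt1, Dnmt3a and Dnmt3b had been knocked out in an earlier study. The sample titles number the samples of a genotype as replicates. These are called cultures here, although the titles do not state that they were grown separately. All 4 cultures shared the same serum medium with leukaemia inhibitory factor on gelatin, and the labels also state for all of them that cells were differentiated for 4 days before RNA was isolated. Each genotype is 1 cell line, so effects of the line and of the genotype cannot be told apart, and the panel measures miRNAs, so the loss of the DNMTs was not checked here. The 4 libraries held between 511661 and 613666 counts, all recovered from the deposited values. The miR-290 to miR-295 cluster, which marks mouse ESCs, gave summed levels of 338120 and 332117 normalised counts in WT and 271498 and 295039 in TKO, with 8 of its 11 probes above background. The 17 probes for markers of 6 other cell types, from neural to epithelial, had 8 above background and sums of 3533 and 3173 in WT and 2554 and 2557 in TKO. These lists did not move together. The epithelial sum was 1327 and 1201 in WT and 546 and 440 in TKO, with 1 of its 2 probes above background. For the neural list it was 621 and 545 in WT and 223 and 211 in TKO (2 of 2 above background). For the blood list it was 931 and 868 in WT and 1271 and 1395 in TKO (2 of 3). For the mesenchyme list it was 552 and 495 in WT and 444 and 437 in TKO (3 of 6). The muscle and liver lists had 0 probes above background. The probes for miR-302 and miR-367, known from primed and early differentiating cells, had 3 of 5 above background and sums of 373 and 349 in WT and 1649 and 2021 in TKO. Averaged over the libraries no marker probe was at 0, the lowest being at 10.7 normalised counts, and the part of these marker differences in the results given here was not tested.

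miRNAs are cut from hairpin precursors, first by the Microprocessor in the nucleus and then by Dicer in the cytoplasm, and either arm of the hairpin (5p or 3p) can be loaded into Argonaute, where the seed at the 5′ end selects target mRNAs. The Sfmbt2 cluster arose by repeated duplication in rodents, is known from mouse ESCs and placenta, and its mature miRNAs are rich in UG or in AC repeats. Sfmbt2 itself is expressed from the paternal copy in early embryos and extraembryonic tissue. The study asked whether DNA methylation beside a miRNA gene bears on how the miRNA is made, and the comparison of WT with TKO cells shows how the level of each mature miRNA differs between cells with and without DNMTs.

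RefSeq (GRCm38.p6) places 82 precursors of these names, 72 of them within Sfmbt2 (chr2:10370440-10595253), where they span 10466663 to 10518279. The table gives gene spans only, so exon and intron were not separated. All precursors that could be placed for 25 probes lie within Sfmbt2, those of 5 lie elsewhere and those of 3 lie in both places. The 5 probes from elsewhere were miR-466i in Cdk13 (chr13:17747473-17747593), miR-466j outside any annotated gene (chr10:60960723-60960844), miR-466k in the noncoding Gm31419 (chr3:85467377-85467498), miR-467f in Fxr2 (chr11:69635400-69635519) and miR-467g in Grk4 (chr5:34732853-34732972). For 7 probes more than 1 precursor codes for the same mature miRNA, up to 12 copies for miR-669a and 10 for miR-467a, and such a probe adds up the output of all of them. No gene or miRNA of any other name is annotated within the span of Sfmbt2 in that table.

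Mature sequences from RefSeq were matched for 6 of the 33 probes, the 5 from outside Sfmbt2 and the miR-467h part of a pooled probe. They are shown because they carry the feature that makes the family a family, the simple repeat of UG or AC. They also show how close these 6 are to one another as targets for a probe. None of them comes from a precursor within Sfmbt2, so they do not show how close the members there are. Capitals mark the seed, bases 2 to 8 counted from the 5′ end, and each is read 5′ to 3′.
mmu-miR-466i-3p: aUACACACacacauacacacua
mmu-miR-467f: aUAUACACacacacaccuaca
mmu-miR-467g: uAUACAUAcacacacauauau
mmu-miR-466j: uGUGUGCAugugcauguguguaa
mmu-miR-466k: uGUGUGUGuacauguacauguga
mmu-miR-467h: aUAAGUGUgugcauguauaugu
In GRCm38.p6 these lie at chr13:17747552-17747573, chr11:69635419-69635439, chr5:34732872-34732892, chr10:60960802-60960824, chr3:85467396-85467418 and chr9:115381898-115381919, in the order printed. The sequences of miR-467f and miR-467g are on the minus strand and the other 4 on the plus strand.

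The first 3 sequences are AC repeats and the other 3 are UG repeats. Of the steps from one base to the next, between 47.6% and 71.4% were of the prevailing repeat (GU and UG, or AC and CA) in these 6, while the median of that share over the 1679 mouse mature miRNAs in the table was 19.0% and 1.01% of them reached 47.6%. No seed was shared by any pair of the 6. The longest stretch in common was 13 bases between miR-466i-3p and miR-467f, and it was 11 bases between miR-467f and miR-467g, between miR-466i-3p and miR-467g, and between miR-466j and miR-467h. How far a probe of this panel also reads near-identical members was not tested, so each value is that of a probe rather than of a single gene.

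Taken as a group, the family made up 2.97% and 3.01% of all mouse signal in the WT libraries and 2.67% and 1.98% in the TKO libraries. Its summed level was 17465 and 17939 normalised counts in WT and 13495 and 11388 in TKO, so that both TKO libraries were below both WT libraries. The TKO mean of that sum was 70.3% of the WT mean. In bulk RNA a lower level in all cells and a smaller share of expressing cells cannot be told apart.

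Most of this signal came from few probes. miR-669f alone gave 47.3% and 49.9% of the family's summed level in WT and 49.3% and 38.6% in TKO. The 5 highest probes, miR-669f, miR-466a-3p+miR-466b-3-3p, miR-467f, miR-669a and miR-669o, together gave 76.4% and 76.9% in WT and 75.5% and 71.9% in TKO. Without miR-669f the TKO mean of the sum was 76.0% of the WT mean. The 33 probes for viral miRNAs on the panel, which have no target in mouse cells, averaged 31.5 normalised counts, and a probe was taken as above background when its mean over all libraries exceeded their mean plus 2 SD, 69.2. By that measure 18 of the 33 members were above background, beside 238 of all 566 mouse probes.

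**Figure D1:**
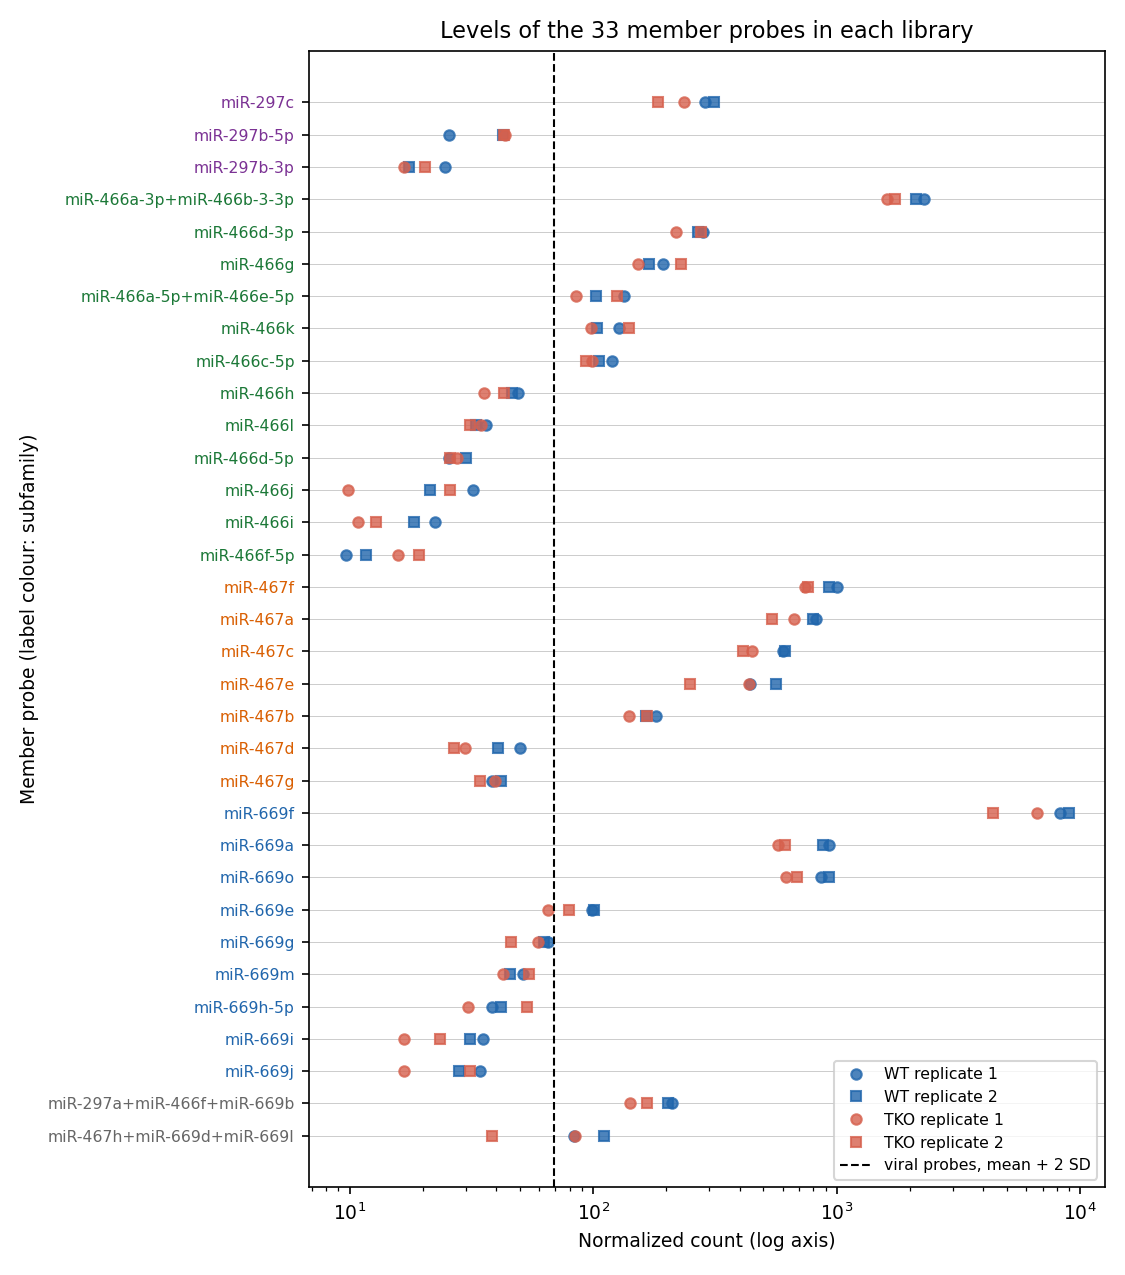
Normalised count of each of the 33 member probes (log axis) in the 2 WT (blue) and 2 TKO (red) libraries, with circles for replicate 1, squares for replicate 2 and label colours for the subfamilies. The dashed line is the viral probes' mean plus 2 SD at 69.2, and the levels run from 9.63 for miR-466f-5p to 8951 for miR-669f, with the red points left of the blue ones for 17 probes.

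The members tended to be lower in TKO cells without any single one passing the test. The mean was lower in TKO for 28 of the 33 members (84.8%), beside 61.7% of all mouse probes. Differences are given as TKO minus WT, each genotype averaged as log2(normalised count + 1), and their median was -0.37 over the members and -0.12 over all mouse probes, and it was -0.11 over the 533 mouse probes outside the family. Member differences ranged from -0.74 to 0.67. Both TKO libraries were below both WT libraries for 17 members (51.5%), beside 36.0% of all mouse probes, and above them for 2 members, beside 17.3%. Among the 18 members above background 16 had a lower mean in TKO and the median difference was -0.43, while over all 238 mouse probes above background 71.8% had a lower mean and the median was -0.20.

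limma called 0 members at an adjusted p of 0.05 in either direction, beside 4.24% of all mouse probes called lower and 4.24% called higher. The smallest adjusted p of a member, by limma with Benjamini-Hochberg adjustment over all 566 probes, was 0.0983 for miR-669a. At an unadjusted p of 0.05, 9 members were lower and 1 was higher, beside 15.4% and 8.13% of all mouse probes. The count-based voom test in limma, run on the recovered counts, called 5 members lower and 0 higher, beside 9.72% and 5.30% of all mouse probes. The same limma test was run on only the 238 probes above background, 18 of them members. It called 3 of these 18 lower and 0 higher, beside 20.2% and 10.9% of the 238. The calls on members thus depend on the test and on the filter. With 2 libraries a genotype, all p-values measure the spread between these replicates only.

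**Figure D2:**
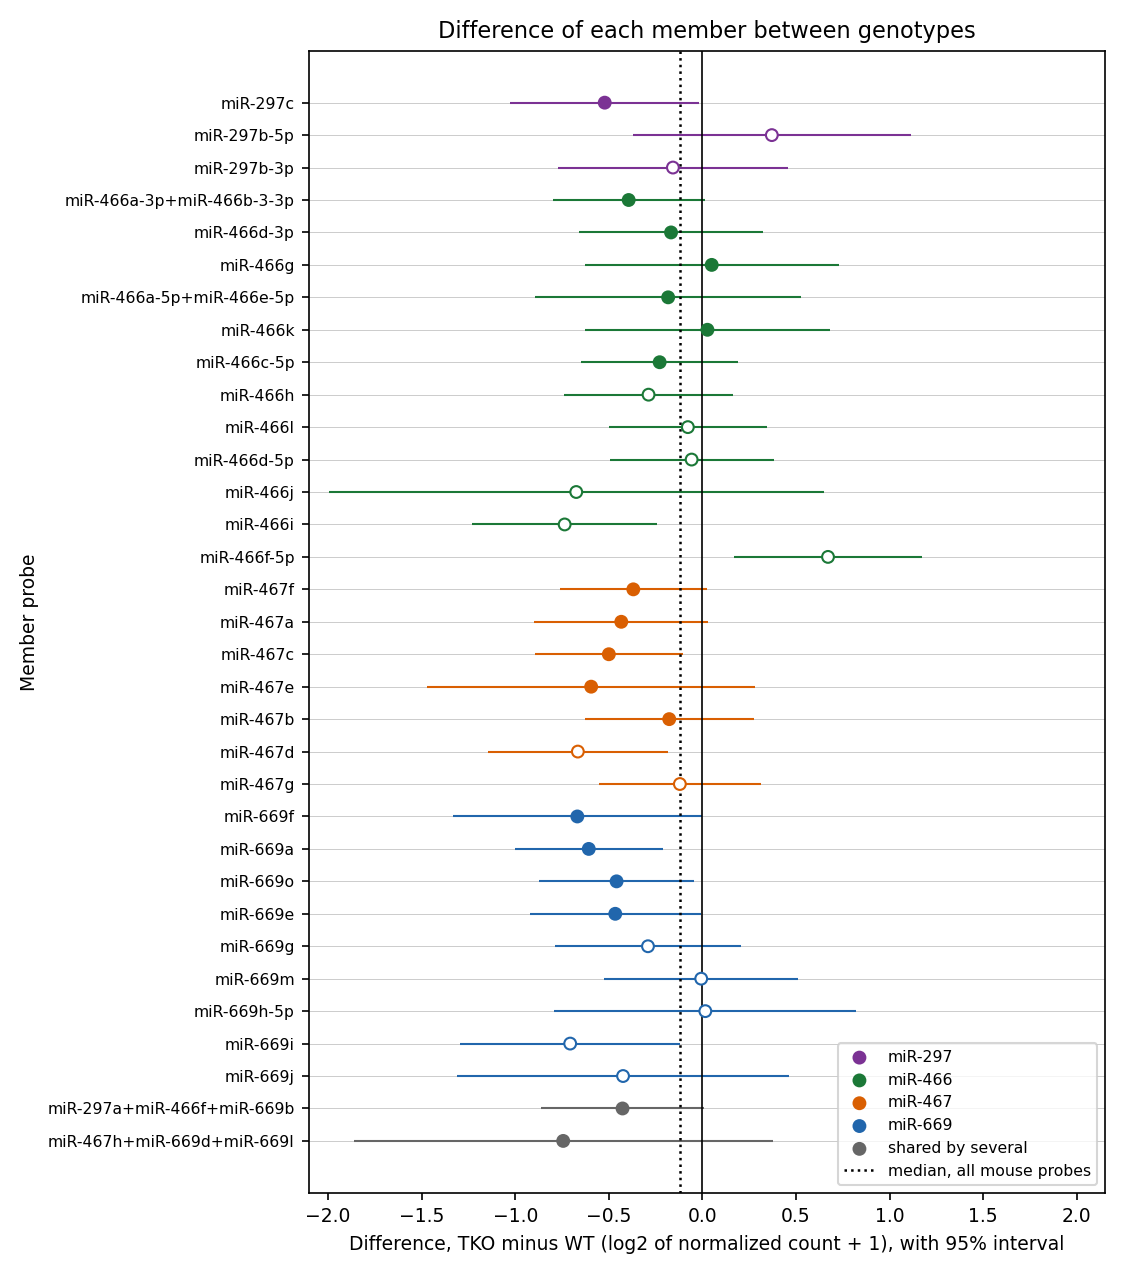
Difference of each member, TKO minus WT in log2(normalised count + 1), with the 95% confidence interval of the limma fit, coloured by subfamily, filled when above background and open when not. The dotted line is the median of all 566 mouse probes at -0.12, and 28 of the 33 points lie below 0.

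The 9 miR-669 probes, with a median difference of -0.46 and a lower mean in TKO for 8, include the most abundant member. miR-669f was counted at 8253 and 8951 in the WT libraries and at 6654 and 4395 in the TKO libraries. Both TKO libraries were below both WT libraries, and the gap between the TKO cultures was wider than that between TKO replicate 1 and WT replicate 1. The difference was -0.67 ± 0.25 (SE, n = 2 per genotype, limma adjusted p = 0.211), and it was -0.37 without TKO replicate 2 and -0.97 without TKO replicate 1.

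miR-669a, which 12 copies within Sfmbt2 encode, was counted at 930 and 878 in WT and 574 and 612 in TKO, with replicates close together and the groups well apart. The difference was -0.61 ± 0.15 (SE), a TKO mean at 65.6% of the WT mean, with a limma adjusted p of 0.0983 over all mouse probes, 0.0158 over the probes above background and 0.00740 by voom. miR-669o was counted at 866 and 930 in WT and 619 and 688 in TKO, also without overlap. Its difference was -0.46 ± 0.16 (SE), with a limma adjusted p of 0.183 over all mouse probes, 0.0449 over the probes above background and 0.0293 by voom. Of the 9 miR-669 probes, 4 were above background, the remaining one being miR-669e at 98.5 and 101 in WT and 65.2 and 79.3 in TKO (chosen after its values were seen). The lowest differences of the subfamily, -0.71 for miR-669i, and the highest, 0.016 for miR-669h-5p, both belonged to probes below background.

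In the miR-467 subfamily all 7 probes had a lower mean in TKO, with a median difference of -0.43 and a range from -0.67 to -0.12, and for 5 of them both TKO libraries were below both WT libraries. That held for 36.0% of all mouse probes and for 52.1% of those above background, where 5 of the 7 lie. miR-467f, from the Fxr2 locus, was counted at 1005 and 933 in WT and 739 and 760 in TKO. These groups did not overlap, and the difference of -0.37 ± 0.15 (SE, limma adjusted p = 0.227, voom adjusted p = 0.0449) is also the median of the whole family. miR-467c, named after its values were seen because 2 of the tests called it, was counted at 602 and 611 in WT and 448 and 411 in TKO. Its difference was -0.50, with a limma adjusted p of 0.141 over all mouse probes, 0.0303 over the probes above background and 0.0216 by voom.

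miR-467e had the largest difference of the subfamily above background but also the widest spread. It was counted at 442 and 565 in WT and 438 and 250 in TKO, so that TKO replicate 1 lay just under WT replicate 1. The difference was -0.59 ± 0.33 (SE, limma adjusted p = 0.348), and it shrank to -0.19 without TKO replicate 2. miR-467g, from within Grk4, was below background at 38.5 and 41.8 in WT and 39.5 and 34.3 in TKO, with TKO replicate 1 between the WT replicates and a difference of -0.12, beside the median of -0.12 over all probes.

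The 12 miR-466 probes were divided. Their median difference was -0.18, 9 had a lower and 3 a higher mean in TKO, and both TKO libraries were below both WT libraries for 4, which is 33.3% of them beside 36.0% of all mouse probes. Leaving out TKO replicate 1 moved the median to -0.067, and leaving out TKO replicate 2 moved it to -0.29. The most abundant was the 3p probe miR-466a-3p+miR-466b-3-3p, counted at 2284 and 2111 in WT and 1608 and 1736 in TKO. The groups did not overlap, the TKO mean was 76.1% of the WT mean, and the difference was -0.39 ± 0.15 (SE, limma adjusted p = 0.217, voom adjusted p = 0.0297).

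Of the other 5 miR-466 probes above background only miR-466c-5p separated the genotypes, at 120 and 106 in WT and 98.8 and 93.3 in TKO, a difference of -0.23 (limma adjusted p = 0.452; chosen after its values were seen, as was miR-466d-3p, at 284 and 270 in WT and 218 and 278 in TKO, which overlapped). miR-466g was counted at 194 and 169 in WT and 152 and 230 in TKO, the TKO cultures lying on either side of the WT pair, with a difference of 0.050 that became -0.048 without WT replicate 2 and -0.25 without TKO replicate 2. miR-466k, a UG repeat from the Gm31419 locus, was counted at 127 and 104 in WT and 97.8 and 140 in TKO, with a difference of 0.027 that became -0.12 and -0.23 without the same libraries. For miR-466a-5p+miR-466e-5p, at 134 and 103 in WT and 85.0 and 125 in TKO, the difference of -0.18 became 0.0042 without WT replicate 1 and 0.095 without TKO replicate 1. For miR-466g, miR-466k and miR-466a-5p+miR-466e-5p the spread between TKO cultures was wider than the difference between the genotypes.

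The extremes of the miR-466 subfamily were probes with few counts. miR-466i, an AC repeat from Cdk13, was counted at 22.5 and 18.4 in WT and 10.9 and 12.9 in TKO, all below the viral mean, with a difference of -0.74 ± 0.18 (SE, limma adjusted p = 0.105). miR-466j was counted at 32.1 and 21.4 in WT and 9.88 and 25.7 in TKO, overlapping, with a difference of -0.67 ± 0.50 (SE) that moved to -0.026 without TKO replicate 1. miR-466f-5p, chosen after its values were seen as the member with the highest difference, was counted at 9.63 and 11.7 in WT and 15.8 and 19.3 in TKO, a difference of 0.67 (limma adjusted p = 0.135) between levels that were below the viral mean in every library. Such values cannot be told from background, and a difference between them carries no measured direction of the miRNA.

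Of the 3 miR-297 probes only miR-297c was above background. It was counted at 288 and 315 in WT and 236 and 185 in TKO, without overlap, with a difference of -0.52 ± 0.19 (SE, limma adjusted p = 0.204). Both arms of miR-297b were below background, with counts from 16.8 to 43.5 in single libraries. The subfamily median of -0.16 is that of the faint miR-297b-3p, and it was 0.014 without WT replicate 1. Both pooled probes had a lower mean in TKO. miR-297a+miR-466f+miR-669b was counted at 210 and 203 in WT and 141 and 166 in TKO, and miR-467h+miR-669d+miR-669l at 83.5 and 111 in WT and 84.0 and 38.6 in TKO (both described after their values were seen). The first of these did not overlap between the genotypes, while TKO replicate 1 of the other lay between the WT cultures.

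Above background were 5 of 7 probes for miR-467, 4 of 9 for miR-669, 6 of 12 for miR-466 and 1 of 3 for miR-297, beside 238 of all 566 mouse probes. The summed level of miR-669 was 10372 and 11070 in WT and 8078 and 5984 in TKO, that of miR-467 3144 and 3157 in WT and 2500 and 2190 in TKO, and that of miR-466 3318 and 3024 in WT and 2395 and 2760 in TKO. In each of these 3 subfamilies both TKO sums were below both WT sums. The miR-297 sums, 338 and 375 in WT and 296 and 249 in TKO, were placed in the same order, but as a share of all mouse signal they overlapped, at 0.0574% and 0.0630% in WT and 0.0587% and 0.0432% in TKO. The total mouse signal was itself lower in TKO, 504742 and 576059 beside 588745 and 595104 in WT. The subfamilies share libraries and, through pooled and near-identical sequences, part of their signal, and no test was made between them.

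Among the probes whose arm is known, the 5p and 3p arms had different medians but overlapping ranges. Differences ran from -0.23 to 0.67 for 5p and from -0.74 to -0.12 for 3p. All 7 3p probes had a lower mean in TKO, with a median difference of -0.37, while 3 of the 7 5p probes had a lower and 4 a higher mean, with a median of 0.016. For the 19 probes whose arm is not given or is mixed, 18 had a lower mean and the median was -0.46. Only 3 probes of each arm were above background. Among these the 5p median was -0.18 and the 3p median -0.37. Without TKO replicate 2 the median of all 7 5p probes was -0.19, so the sign of the 5p median is not settled by these libraries.

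Precursors measured by both arms allow a comparison within the hairpin, and 3 were available, with miR-466a only through pooled probes. For miR-297b the difference was 0.37 for the 5p and -0.16 for the 3p arm, for miR-466d -0.058 and -0.17, and for miR-466a, whose probes also read miR-466e and miR-466b-3, -0.18 and -0.39. The 3p arm thus had the lower difference in each of the 3. Only miR-466a had both arms above background. Its 5p probe also reads miR-466e and its 3p probe miR-466b-3, so their ratio is not that of a single hairpin. The ratio of 3p to 5p counts was 17.1 and 20.5 in the WT libraries and 18.9 and 13.8 in the TKO libraries. The genotypes overlapped, and no shift between these probes was detectable with these replicates.

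Members were next grouped by where their precursors lie. The 25 probes from within Sfmbt2 had a median difference of -0.29, with a lower mean in TKO for 22 and no overlap in the lower direction for 14. The 5 from outside had a median of -0.37, with 4 lower and no overlap for 2. As shares these non-overlapping probes were 56.0% and 40.0%, beside 36.0% of all mouse probes. The 3 probes with copies in both places had a median of -0.43, with 2 lower, and it was -0.19 without TKO replicate 2. The 5 loci outside lie on 5 different chromosomes, and only miR-466k and miR-467f among them were above background. One of these had overlapping groups and the other did not, as given with their subfamilies. The outside median is the value of miR-467f, and so is the median of the 3p probes. Apart from miR-466k, the 5 outside probes are all 3p probes, so location and arm are not separate groupings. With only probes above background the order was reversed, with medians of -0.45 within and -0.17 outside Sfmbt2. That outside value rests on miR-466k and miR-467f alone. No test between the locations was made.

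Along Sfmbt2 itself, 21 probes could be placed at a single annotated precursor, between 96.8 and 148 kb from the lower coordinate of the gene. miR-466a-5p+miR-466e-5p and miR-466a-3p+miR-466b-3-3p also read miR-466a, which could not be placed. They are given at the precursors of miR-466e and miR-466b-3. miR-669f and its neighbour miR-669e, at 96.8 and 97.1 kb, had differences of -0.67 and -0.47. Between 103 and 133 kb the differences were -0.50 for miR-467c, -0.29 for miR-669g, -0.42 for miR-669j, -0.18 for miR-466a-5p+miR-466e-5p, -0.18 for miR-467b and -0.39 for miR-466a-3p+miR-466b-3-3p. miR-467e, miR-467d and miR-297c, between 135 and 139 kb, had -0.59, -0.67 and -0.52. From 141 kb on, miR-466d, miR-297b, miR-466g, miR-466h, miR-466l and miR-669h-5p gave differences from -0.29 to 0.37, mixed with -0.46 for miR-669o and -0.71 for miR-669i, which lie among them. miR-466g, at 0.050, and miR-669o, at -0.46, are both above background, and the precursors of both lie at 144 kb. Weak and strong differences thus occurred on both sides of 141 kb. Members outside the naming rule are given here for their position, after their values were seen.

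**Figure D3:**
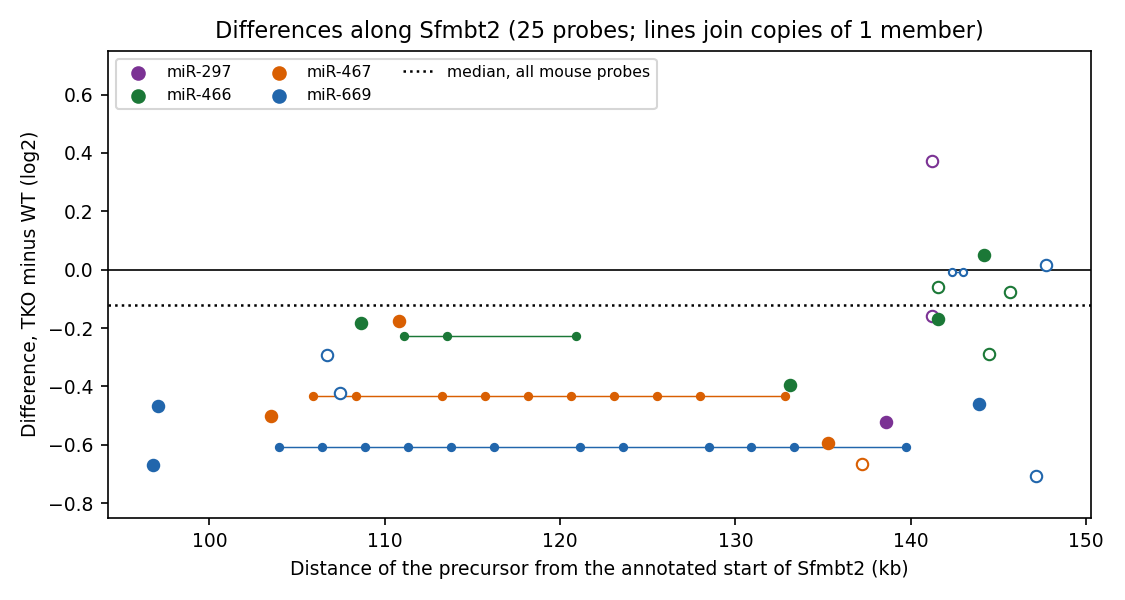
Difference of the 25 probes from within Sfmbt2, TKO minus WT in log2(normalised count + 1), against the distance of their precursors from the lower coordinate of the gene in kb, with lines joining several copies read by 1 probe and open points for probes below background. The dotted line is the median of all mouse probes at -0.12, and points above 0 lie only beyond 141 kb, next to others as low as -0.71.

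The study sorted mouse miRNA precursors by the methylation around them, and its list of those classes was used here as a label. Of the members, 7 probes have all precursors in classes with methylated flanks (on both sides, upstream or downstream), 17 only in the flat or depleted classes, 5 in both kinds and 4 were not listed. The median difference was -0.50 for the 7, -0.29 for the 17, -0.43 for the 5 and -0.30 for the 4. A lower mean in TKO was found for 6, 14, 4 and 4 of them. Above background were miR-467b, miR-467c and miR-467e among the 7 and 10 probes among the 17, including miR-669o, miR-467f, miR-297c and miR-466a-3p+miR-466b-3-3p. The 3 with methylated flanks had differences of -0.18, -0.50 and -0.59. The 10 of the flat or depleted classes ranged from -0.74 for miR-467h+miR-669d+miR-669l to 0.050 for miR-466g. The paper describes flat loci as evenly methylated along their length, so that label need not mean unmethylated DNA. The ranges overlapped, and no test between these classes was made because most probes share 1 locus.

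Comparison with clusters of other kinds shows where the family stood in these libraries. The 43 probes of the miR-379 to miR-410 cluster, which is also imprinted and also holds many duplicated miRNAs, had a median difference of -0.0068, with 22 lower and 21 higher in TKO. The 11 probes of the miR-290 to miR-295 cluster had a median of -0.22, with 9 lower. limma called none of either list. At an unadjusted p of 0.05 it had 0 lower and 3 higher probes of the miR-379 to miR-410 cluster and 0 of the other list. The sums over the 43 probes were 13006 and 12916 in WT and 13515 and 13000 in TKO. The TKO sums were above or between those of WT in this imprinted cluster, and below both of them in the Sfmbt2 family and in the miR-290 to miR-295 cluster. Both TKO libraries were below both WT libraries for 72.7% of the miR-290 to miR-295 probes, beside 51.5% of the family.

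How far below 0 the family lies depends on how the libraries are scaled. With each library divided by its sum over mouse probes the family median was -0.23 and that of all mouse probes 0.0089, and with division by the geometric mean of the 100 highest probes they were -0.20 and 0.042. The family median minus the median of all probes ranged from -0.25 to -0.24 over the deposited scaling and the 4 others. Scaling moves the differences of all probes alike apart from the pseudocount. This narrow range was therefore fixed in advance and is no check of that distance. Over all settings tried, single libraries left out included, it ranged from -0.29 to -0.19. The number of members with a lower mean in TKO was 28 on the deposited scale, 24 and 23 under the scalings just named, 22 with the viral background subtracted, and between 24 and 31 with 1 library left out.

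**Figure D4:**
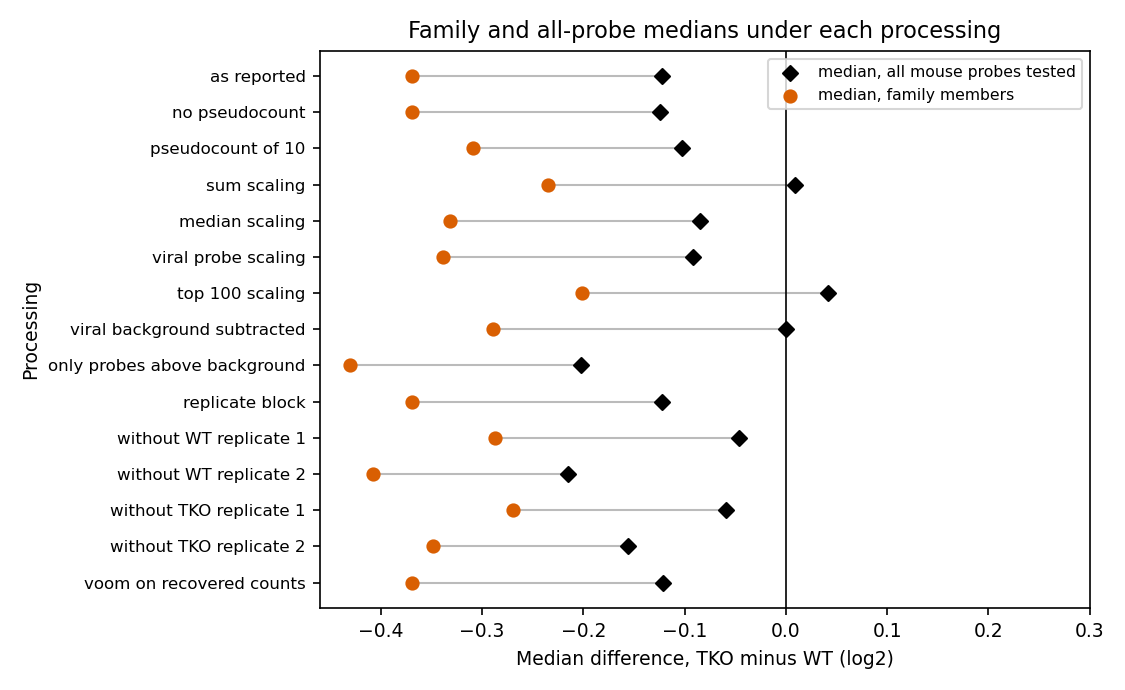
Median difference, TKO minus WT in log2, over the family members (orange circles) and over all mouse probes tested (black diamonds) as reported and under each of the 14 other settings. The circles lie between -0.43 and -0.20 and left of the diamonds in every row.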

How the data were processed

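Mature miRNAs were measured on the NanoString nCounter panel in 2 WT and 2 TKO cultures. The authors normalised the counts in nSolver (version and settings not given in the sources used here) and deposited 1 table of log2 values. Each value was turned back to a linear normalised count. In all 4 libraries 100% of these were whole multiples of 1 step within 0.05, which gave recovered counts of 9 to 9216 for the members, 6 of which had a library with at most 20 counts, where counting error is largest. Samples were grouped by the genotype in their labels. limma 3.58.1 (R 4.3.3) was fitted to log2(normalised count + 1) over all 566 mouse probes, TKO minus WT, with eBayes and Benjamini-Hochberg adjustment at 0.05, and no covariate. On simulated data for this comparison (566 probes, 20 runs, 200 probes changed 2-fold) 73.4% of changed probes were recovered and 3.26% of calls were false. The simulation gave all probes the same spread, set below the median spread seen between replicates, with counting error added. A 2-fold change is also larger than that of any member (from -0.74 to 0.67 in log2). The recovered share therefore does not hold for changes of the size seen in the members. The replicates of one number do not deviate together (r = -0.094 over 566 probes), so the numbers were not used to pair samples.

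Named members were those called by limma, the 5 highest in WT, the largest rise and fall above background in each subfamily, those outside Sfmbt2, precursors with both arms above background, miR-467g and miR-466i. Members, lists and this rule were chosen with earlier results of these data known. Precursors were placed through RefSeq symbols and synonyms of GRCm38.p6, and miR-466a, which matched none, through miR-466b-3 and miR-466e. The 14 alternatives changed the pseudocount, scaling, background, filter, replicates, block or test.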

Additional observations from a re-analysis of the deposited data

How the results depend on the processing

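Under the 14 alternatives, 9 of the 13 members named by rule never changed sign, and of their 177 alternative values 163 kept direction and side of the threshold, 6 passed it and 8 changed sign. Members called lower numbered 3 with only probes above background and 5 with voom, and 0 under the other 12, the replicate block included (30 of all probes called, against 48). Without either TKO library 0 of all mouse probes were called, and 14 and 9 without WT replicate 1 and 2, so the 0 members there say nothing about the family. The family median was -0.31 with a pseudocount of 10, -0.29 with the viral background subtracted, -0.29 without the 2 probes that several subfamilies share (chosen after seeing the data), and from -0.41 to -0.27 with 1 library left out. With sum scaling the medians were -0.23 for the family, -0.042 for miR-466, -0.32 for miR-669, -0.23 for 3p, -0.16 within and -0.23 outside Sfmbt2. With scaling to the 100 highest probes they were -0.20, -0.0082, -0.29, -0.20, -0.13 and -0.20 in that order. With only probes above background they were -0.43 for the family, -0.52 for miR-297, -0.54 for miR-669, -0.18 for 5p, -0.45 within and -0.17 outside Sfmbt2. With the viral background subtracted they were -0.60 for miR-669, -0.088 for 3p and 0 outside Sfmbt2, and miR-466i and miR-466j, at the floor in every library, gave no value. With 1 library left out they ranged from -0.29 to -0.067 for miR-466, from -0.54 to -0.38 for miR-669, from -0.19 to 0.29 for 5p, from -0.42 to -0.22 for 3p and from -0.42 to -0.22 outside Sfmbt2. Among named members, miR-467g turned to 0.011 under sum scaling and 0.044 under the scaling to the 100 highest, and with 1 library left out miR-466a-5p+miR-466e-5p ranged from -0.46 to 0.095, miR-466g from -0.25 to 0.35 and miR-466k from -0.23 to 0.29. The cause of these shifts was not tested. The replicate block left the family median at -0.37 and changed no member's call. With 1 library left out a genotype rests on a lone culture that is assumed to vary like the other pair. The 15 members below background carry few counts, which limits any statement on their direction.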
